A study of Gallus gallus with 9 samples.

Results

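The late step of BMP4 treatment was measured in chick embryo explants as the difference between 24 h and 12 h of culture with BMP4. The comparison sets 1 array of explants kept for 24 h with BMP4 against 2 arrays, A and B, of explants kept for 12 h with BMP4. These are 3 of the 9 expression arrays of the study, chosen by their labels for agent and time, and all 38439 probe sets other than the array's own controls were taken, of 38535 in all. The explants were splanchnic mesoderm of the anterior heart field of Gallus gallus, plated on a drop of collagen under a medium with fetal calf serum and chick embryo extract. The BMP4 was human recombinant protein at 200 ng/ml, present in both groups compared. The remaining BMP4 array is from 3 h. Untreated explants are on 5 arrays, those at 3, 12 (A and B) and 24 h in the same medium. The title of the remaining untreated array gives no time after plating, and it was taken as 0 h. The labels do not say whether A and B are separate pools of explants or the same RNA, so a p-value here covers no more than the spread of these arrays. The 24 h array stands alone and was assumed to vary as the 12 h arrays do.

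The anterior heart field is a population of mesoderm progenitors behind the early heart tube that is kept dividing by FGF and other signals and is added to the growing outflow tract. BMP ligands act through receptor kinases and SMAD factors, switch on targets such as the ID and MSX genes, and in the chick favour the change of such progenitors into heart muscle at the expense of their growth. Heart muscle contracts through thick filaments of myosin that slide along thin filaments of actin and troponin, anchored in Z-discs and triggered by calcium released from the sarcoplasmic reticulum.

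Signals are the deposited MAS5 intensities of single probe sets and are not compared between genes. Where a gene has several probe sets, the brightest on average over the 9 arrays stands for it. Differences are on the log2 scale after 27.79, the 25th percentile of the table, was added to each signal, which understates the change of dim genes. Errors after ± are standard errors from limma, and a difference was called where the p-value adjusted over the 28329 probe sets tested was under 0.05. The 9 arrays had near-equal trimmed mean signals of 503.66 to 504.72. Over all 38439 probe sets, log2 signals of the 24 h array correlated at 0.966 with 12 h array A and at 0.960 with array B, beside 0.972 between A and B. The ratio of 3′ to 5′ signal of ACTB, a sign of RNA integrity, was 5.67 at 24 h against 5.50 in A and 4.26 in B. That of GAPDH was 1.63 at 24 h, between 1.81 in A and 1.40 in B. ISL1, which marks the field, had a signal of 9639 at 24 h against 10088 and 9566 at 12 h. TNNT2, heart troponin T and a gene of heart muscle, had 28677 at 24 h against 16198 and 16991 at 12 h. Among other genes of the field, TBX1, FGF10, FGF8 and EYA2 were lower at 24 h than on both 12 h arrays, as given below. TBX1 and FGF10 were dim and not called. Over 6 markers of splanchnic and pharyngeal mesoderm, the signal summed to 11327 at 24 h against 12434 and 11777 at 12 h. These were ISL1, which makes up most of the sum, TBX1, FGF10, EYA2, TCF21 and FOXC2. TCF21 and FOXC2 are not given singly here. These signals describe the labelled tissue and do not establish its identity.

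Between 12 h and 24 h of BMP4, 8 of 14 thick filament genes and 5 of 24 Z-disc genes rose. In the same step 5 of 27 sterol and lipid synthesis genes, 4 of 34 neural and placode genes and 2 of 18 progenitor genes fell. Limma called 195 of 28329 probe sets (0.688%), of which 87 were higher at 24 h (0.307%) and 108 lower (0.381%). At an unadjusted p under 0.05 there were 2957 (10.4%). In terms of named genes, 128 of 11675 were called (1.1%), 55 higher (0.471%) and 73 lower (0.625%). The called probe sets that were higher ran from 0.90 to 4.55 on the log2 scale and those that were lower from −0.82 to −4.18, while the median over all probe sets tested was −0.0058. In bulk RNA, fewer cells of a type and less RNA per cell cannot be told apart. With the spread taken as equal at all signal levels, limma called 0 probe sets, with 2694 at an unadjusted p under 0.05. Without BMP4 12 h array B the counts were 67 higher and 68 lower, and without untreated 12 h array A or B they were 157 higher and 182 or 181 lower.

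**Figure D1:**
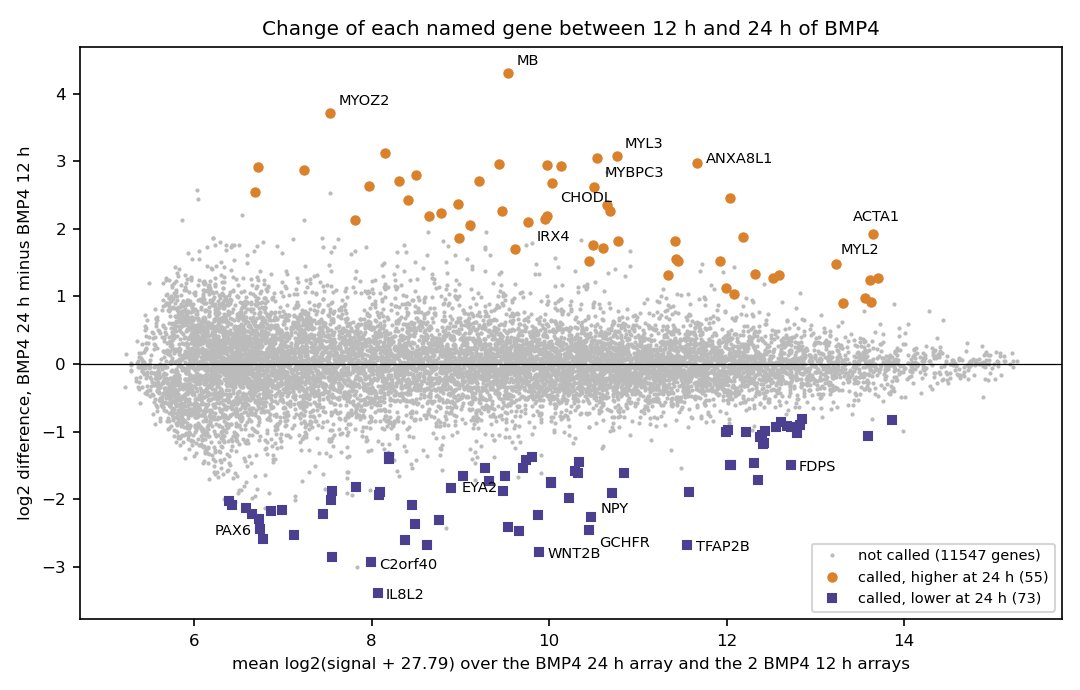
Each point is 1 of 11675 named genes. The horizontal axis gives the mean of log2(signal + 27.79) over the 24 h array and the 2 12 h arrays, and the vertical axis the log2 difference of BMP4 24 h minus BMP4 12 h. The 55 genes called higher (circles) reach 4.31 for MB, and the 73 called lower (squares) reach −3.39 for IL8L2.

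MB, which encodes the oxygen-binding protein myoglobin of heart and red muscle, rose most among named genes. Its signal was 5419.7 on the 24 h array, against 205 and 296 on the 12 h arrays (log2 difference 4.31 ± 0.37, adjusted p = 0.00306, a 19.8-fold increase on the scale of signal plus 27.79). The 24 h array lay far above both 12 h arrays, which lay on either side of the 224 of the BMP4 3 h array. Thick filament proteins followed. Of 14 tested genes of this list, 8 were called higher, and at an unadjusted p under 0.05 there were 10 higher and 0 lower, beside 5.94% higher and 6.73% lower over all named genes. All 14 had a positive difference. Their median was 1.41, beside −0.0045 over all 11675 genes, of which 49.5% had a positive difference. MYL3, a ventricular and slow muscle myosin light chain, had 7162 on the 24 h array, against 725 and 937 on the 12 h arrays (log2 difference 3.08 ± 0.31, adjusted p = 0.00517). MYBPC3, cardiac myosin-binding protein C, had 6037 on the 24 h array, against 938 and 531 on the 12 h arrays (log2 difference 3.05 ± 0.37, adjusted p = 0.0104). The 24 h value of each exceeded both 12 h values, which in turn exceeded the 3 h values of 133 for MYL3 and 70.0 for MYBPC3.

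MYOM2, a protein of the M-band that ties thick filaments together, had 2698 on the 24 h array, against 475 and 214 on the 12 h arrays (log2 difference 2.97 ± 0.41, adjusted p = 0.0137). Its 24 h signal was above both 12 h signals, while the 12 h pair held the 3 h signal of 299 between them. MYL2, the ventricular regulatory light chain, had 19040.1 on the 24 h array, against 7200.4 and 6475 on the 12 h arrays (log2 difference 1.48 ± 0.21, adjusted p = 0.0148), and its 12 h arrays were close to each other. MYH15, the ventricular myosin heavy chain of the chick, had 22214 on the 24 h array, against 9888 and 8952 on the 12 h arrays (log2 difference 1.24 ± 0.22, adjusted p = 0.0393). The rise was less steep than that from 3 h, where the MYH15 signal was 1182. The heavy chains MYH7B (1.72 ± 0.31, adjusted p = 0.0393) and MYH1B (2.54 ± 0.48, adjusted p = 0.0477) and the light chain MYL4 (1.34 ± 0.20, adjusted p = 0.0187), found in atrial and embryonic muscle, were called as well, the last of them named after its values were seen. MYH7 was dim, with 144 at 24 h against 66.0 and 81.1 at 12 h and no call (0.77 ± 0.43, adjusted p = 0.593). Without BMP4 12 h array B, 5 thick filament genes were called, and MYH15 (adjusted p = 0.066), MYH7B (adjusted p = 0.117) and MYH1B (adjusted p = 0.0545) were not. MYH1B was also not called without array A (adjusted p = 0.09).

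Of 18 thin filament genes, 3 were called higher, beside 0.471% of all named genes, and the median was 0.74. At an unadjusted p under 0.05, 8 were higher and 1 lower, beside 5.94% and 6.73% of all named genes. ACTA1, a striated muscle actin that embryonic heart also expresses, had 31393 on the 24 h array, against 9293 and 7277 on the 12 h arrays (log2 difference 1.93 ± 0.25, adjusted p = 0.0104). ACTC1, cardiac actin, had 23995 on the 24 h array, against 10101 and 9700.0 on the 12 h arrays (log2 difference 1.28 ± 0.24, adjusted p = 0.0487), and TNNC1, the troponin that binds calcium in heart muscle, had 19217 on the 24 h array, against 10554 and 9861 on the 12 h arrays (log2 difference 0.91 ± 0.17, adjusted p = 0.0487). For each of these, the 24 h array was higher than both 12 h arrays, and the 12 h pair differed little for ACTC1 and TNNC1. TNNT2 (0.79 ± 0.23, adjusted p = 0.228), which binds tropomyosin, had a higher signal on the 24 h array than on either 12 h array but was not called. Without BMP4 12 h array B, 1 thin filament gene was called, and ACTC1 (adjusted p = 0.0549) and TNNC1 (adjusted p = 0.0925) were not. Without untreated 12 h array A, and likewise without B, 6 were called.

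Of 24 genes of the Z-disc and of sarcomere assembly, 5 were called higher, beside 0.471% of all named genes, and the median was 0.88. There were 15 higher and 1 lower at an unadjusted p under 0.05, beside 5.94% and 6.73% of all named genes. MYOZ2, a Z-disc protein that binds calcineurin, had 1000.3 on the 24 h array, against 60.6 and 41.7 on the 12 h arrays (log2 difference 3.71 ± 0.47, adjusted p = 0.0104). ACTN2, the actinin that cross-links actin in the Z-disc, had 4856 on the 24 h array, against 985 and 588 on the 12 h arrays (log2 difference 2.63 ± 0.35, adjusted p = 0.0115). MYOZ2 was dim at 12 h, near its 3 h signal of 51.0, whereas ACTN2 at 12 h already exceeded its 3 h signal of 152. LDB3, a Z-disc scaffold (2.80 ± 0.38, adjusted p = 0.012), NEXN, an actin-binding protein of the Z-disc (2.35 ± 0.33, adjusted p = 0.0146), and SMPX, a small striated muscle protein named after its values were seen (2.14 ± 0.31, adjusted p = 0.0148), rose as well. MLIP, a lamin-interacting muscle protein (3.13 ± 0.44, adjusted p = 0.0144), and KLHL41, a kelch protein of the sarcomere (2.88 ± 0.45, adjusted p = 0.0225), were among the 15 highest named genes. The second MLIP probe set tested had −0.42, opposite in sign, and with both averaged MLIP was not called (1.35, adjusted p = 0.102).

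**Figure D2:**
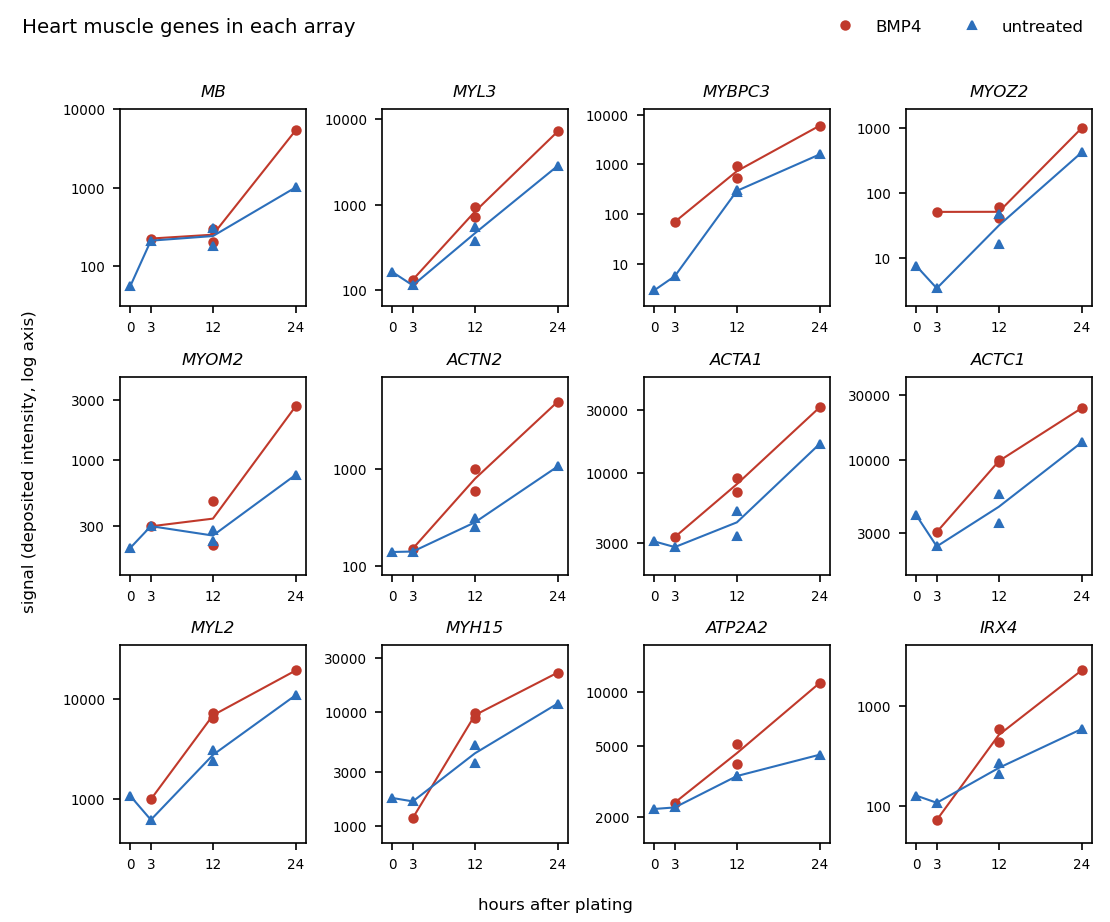
Signal of 12 heart muscle genes on each of the 9 arrays (points, log axis) against hours after plating, with BMP4 (circles) and untreated (triangles). Lines join the single values or the means of the 12 h pairs. The BMP4 24 h array holds the highest signal of every gene shown, for example 5419.7 for MB and 19040.1 for MYL2.

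Of 25 genes of calcium handling and excitation, 1 was called higher, beside 0.471% of all named genes, and the median was 0.46. At an unadjusted p under 0.05, 7 were higher and 1 lower, beside 5.94% and 6.73% of all named genes. The called gene was ATP2A2, the pump that returns calcium to the sarcoplasmic reticulum. It had 11277 on the 24 h array, against 5149 and 3962 on the 12 h arrays (log2 difference 1.31 ± 0.20, adjusted p = 0.021), the 24 h array lying above both. Its second probe set tested differed by −0.71, opposite in sign, and with both averaged the call was lost (0.30, adjusted p = 0.649). CASQ2, the calcium store protein, had 178 at 24 h against 11 and 8.67 at 12 h (2.45 ± 0.48, adjusted p = 0.057), and the calcium channel subunit CACNA2D1 had 952 at 24 h against 300.3 and 167 at 12 h (1.95 ± 0.38, adjusted p = 0.0563). Neither was called, although the 24 h array was above both 12 h arrays, and both were named after their values were seen. The ryanodine receptor RYR2 was dim, with 90.8 at 24 h against 65.4 and 49.0 at 12 h (0.49 ± 0.42, adjusted p = 0.754). The list had 2 calls without BMP4 12 h array A and 3 without either of the untreated 12 h arrays.

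Cardiac transcription factors showed no common direction. Of 26 tested, 1 was called higher and 1 lower, beside 0.471% and 0.625% of all named genes, and the median was 0.022. At an unadjusted p under 0.05, 4 were higher and 4 lower, beside 5.94% and 6.73% of all named genes. IRX4, a factor of the ventricle, had 2272 on the 24 h array, against 592 and 435 on the 12 h arrays (log2 difference 2.10 ± 0.33, adjusted p = 0.024), with 24 h above both 12 h arrays and those above the 3 h signal of 72.3. Its 3 probe sets ran from −0.54 to 2.10, with the call lost when they were averaged (1.08, adjusted p = 0.134), and without BMP4 12 h array B neither IRX4 (adjusted p = 0.064) nor the 1 factor that fell, HEY1, was called. NKX2-5, an early factor of heart progenitors and muscle, had 5079 at 24 h against 5403 and 8681 at 12 h (−0.43 ± 0.30, adjusted p = 0.674), below both 12 h arrays but without a call. HAND2 had 731 at 24 h against 827 and 928 at 12 h (−0.25 ± 0.32, adjusted p = 0.846), and MYOCD, a coactivator of muscle genes, 497 at 24 h against 569 and 340.2 at 12 h (0.16 ± 0.36, adjusted p = 0.919). TBX5, a factor of the first heart field and atria, was dim with 164 at 24 h against 50.9 and 61.9 at 12 h (1.19 ± 0.45, adjusted p = 0.378), and HAND1 had 24.4 at 24 h against 119 and 152 at 12 h (−1.64 ± 0.51, adjusted p = 0.266), its 24 h signal under the added 27.79. GATA4 (35.6 at 24 h against 48.6 and 73.3 at 12 h, −0.47), TBX20 (81.1 at 24 h against 22.8 and 71.8 at 12 h, 0.62) and MEF2C (47.6 at 24 h against 53.8 and 13.4 at 12 h, 0.38) were dim and not called. NPPA, a peptide gene of the chamber muscle, had 79.8 at 24 h against 167 and 77.8 at 12 h (−0.42 ± 0.46, adjusted p = 0.817).

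Genes of anterior heart field progenitors were mostly lower at 24 h. Of 18 tested, 2 were called lower, beside 0.625% of all named genes. At an unadjusted p under 0.05, 6 were lower and 0 higher, beside 6.73% and 5.94% of all named genes. A negative difference was seen in 15, beside 50.5% of all genes, and the median was −0.69, or −0.40 without BMP4 12 h array B. EYA2, a transcriptional cofactor of progenitor cells, had 175 on the 24 h array, against 785 and 622 on the 12 h arrays (log2 difference −1.84 ± 0.24, adjusted p = 0.0109). FGF8, a growth factor that maintains this field, had 126 on the 24 h array, against 343 and 415 on the 12 h arrays (log2 difference −1.40 ± 0.25, adjusted p = 0.0402). Both series went down at each time from 3 h, where the signals were 1782 and 1895. ISL1 had a 24 h signal between its 12 h signals (−0.027 ± 0.16, adjusted p = 0.974). TBX1, a factor of the pharyngeal mesoderm, had 36.8 at 24 h against 62.7 and 109 at 12 h (−0.78 ± 0.41, adjusted p = 0.56), and FGF10 had 13.3 at 24 h against 18.7 and 73.2 at 12 h (−0.74 ± 0.53, adjusted p = 0.691), neither called. The FGF8 call was lost without BMP4 12 h array B (adjusted p = 0.115), which left EYA2 in the list.

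Among 32 genes of FGF signalling and its ERK feedback, FGF8 and FGF18 were called lower, beside 0.625% of all named genes. At an unadjusted p under 0.05, 3 were higher and 6 lower, beside 5.94% and 6.73% of all named genes. The median was −0.22, or −0.071 without BMP4 12 h array A. FGF18 had 127 on the 24 h array, against 381 and 369 on the 12 h arrays (log2 difference −1.38 ± 0.26, adjusted p = 0.0469), with 24 h below both 12 h arrays. FGF19 had 73.5 on the 24 h array, against 357 and 216 on the 12 h arrays (log2 difference −1.60 ± 0.31, adjusted p = 0.0519), just over the threshold, and was called without BMP4 12 h array B (adjusted p = 0.00967). FGF18 was not called without array A (adjusted p = 0.0747) or without array B (adjusted p = 0.0936). Without untreated 12 h array A, and likewise without B, 5 genes of the list were called lower. Without BMP4 12 h array A, FGF8 alone was called, and without array B, FGF19 alone.

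Of 40 BMP and TGF-beta genes, 0 were called higher and 1 lower by limma, beside 0.471% and 0.625% of all named genes. At an unadjusted p under 0.05, 3 were higher and 6 lower, beside 5.94% and 6.73%, and the median was −0.031. MSX2, a homeobox target of BMP, had 13266 on the 24 h array, against 11966 and 13192 on the 12 h arrays (log2 difference 0.078 ± 0.17, adjusted p = 0.916). SMAD6, an intracellular inhibitor of the pathway, had 22269 at 24 h against 19041 and 20390.2 at 12 h (0.18 ± 0.12, adjusted p = 0.681), and BAMBI, a decoy receptor, 34014 at 24 h against 28952 and 27830.2 at 12 h (0.26 ± 0.12, adjusted p = 0.513). These were at or slightly above the 12 h values. ID1 had 12753 at 24 h against 15709.7 and 20219 at 12 h (−0.48 ± 0.18, adjusted p = 0.371) and MSX1 3186 at 24 h against 3847 and 5558 at 12 h (−0.53 ± 0.24, adjusted p = 0.468), both below the 12 h values without a call. The 1 gene called was HEY1, a repressor that BMP and Notch both induce, with 4191 on the 24 h array, against 7297 and 7913 on the 12 h arrays (log2 difference −0.85 ± 0.14, adjusted p = 0.0323). HEY1 was below both 12 h arrays, and its call was lost without array B (adjusted p = 0.0752).

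HEY1 also stands in the Notch list, where LFNG, a glycosyltransferase that tunes Notch receptors, fell too. LFNG had 3152 on the 24 h array, against 7085 and 7228 on the 12 h arrays (log2 difference −1.18 ± 0.15, adjusted p = 0.0109), and 24 h lay below both. These were 2 of 16 Notch genes, with a median of 0.068, and 1 was called without BMP4 12 h array B, 3 without either of the untreated 12 h arrays. The second LFNG probe set tested had −0.38, and with both averaged LFNG was not called (−0.78, adjusted p = 0.209). In the Wnt list 1 of 44 genes was called, the ligand WNT2B, and the median was −0.11, or −0.052 without either of the BMP4 12 h arrays. WNT2B had 235 on the 24 h array, against 1295 and 2442 on the 12 h arrays (log2 difference −2.78 ± 0.36, adjusted p = 0.0111), so that 24 h was below both 12 h arrays, and its 2 probe sets gave −2.78 and −2.76. Limma called 0 of 15 retinoic acid genes and 0 of 8 hedgehog genes, with 2 and 4 of them at an unadjusted p under 0.05. Over all named genes 1.1% were called, and 5.94% were higher and 6.73% lower at that unadjusted p. With that share, 0 or 1 call in a list of this size says little about the list.

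The lowest named gene among those called was IL8L2, an interleukin 8-like chemokine, with 28.2 on the 24 h array, against 575 and 546 on the 12 h arrays (log2 difference −3.39 ± 0.42, adjusted p = 0.0104). TFAP2B, a transcription factor of neural crest and other ectodermal and mesenchymal cells, had 844 on the 24 h array, against 4465 and 6937 on the 12 h arrays (log2 difference −2.68 ± 0.25, adjusted p = 0.00405). For both, 24 h lay far below the 12 h pair. In the neural and placode list 4 of 34 genes were called lower and 0 higher, beside 0.625% and 0.471% of all named genes. At an unadjusted p under 0.05, 2 were higher and 10 lower, beside 5.94% and 6.73%, and the median was −0.43. NPY, a neuropeptide, had 469 on the 24 h array, against 2443 and 2282 on the 12 h arrays (log2 difference −2.26 ± 0.21, adjusted p = 0.00405), and its 12 h arrays were close to each other. PAX6, a factor of eye, placode and neural progenitors, had 6.93 on the 24 h array, against 112 and 226 on the 12 h arrays (log2 difference −2.44 ± 0.38, adjusted p = 0.0225), and its 3 h signal was 845. SIX3, a factor of the forebrain and placodes, had 9.02 on the 24 h array, against 126 and 184 on the 12 h arrays (log2 difference −2.29 ± 0.40, adjusted p = 0.0366), and NTRK3, a neurotrophin receptor, 35.3 on the 24 h array, against 256 and 275 on the 12 h arrays (log2 difference −2.22 ± 0.40, adjusted p = 0.0407). The 24 h signals of PAX6 and SIX3 lie under the added 27.79, so the size of these 2 differences depends on it. Without array B, SIX3 (adjusted p = 0.0993) and NTRK3 (adjusted p = 0.0925) were not called, which left 2 lower in the list, with 1 higher. Without either of the untreated 12 h arrays 6 were called lower.

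**Figure D3:**
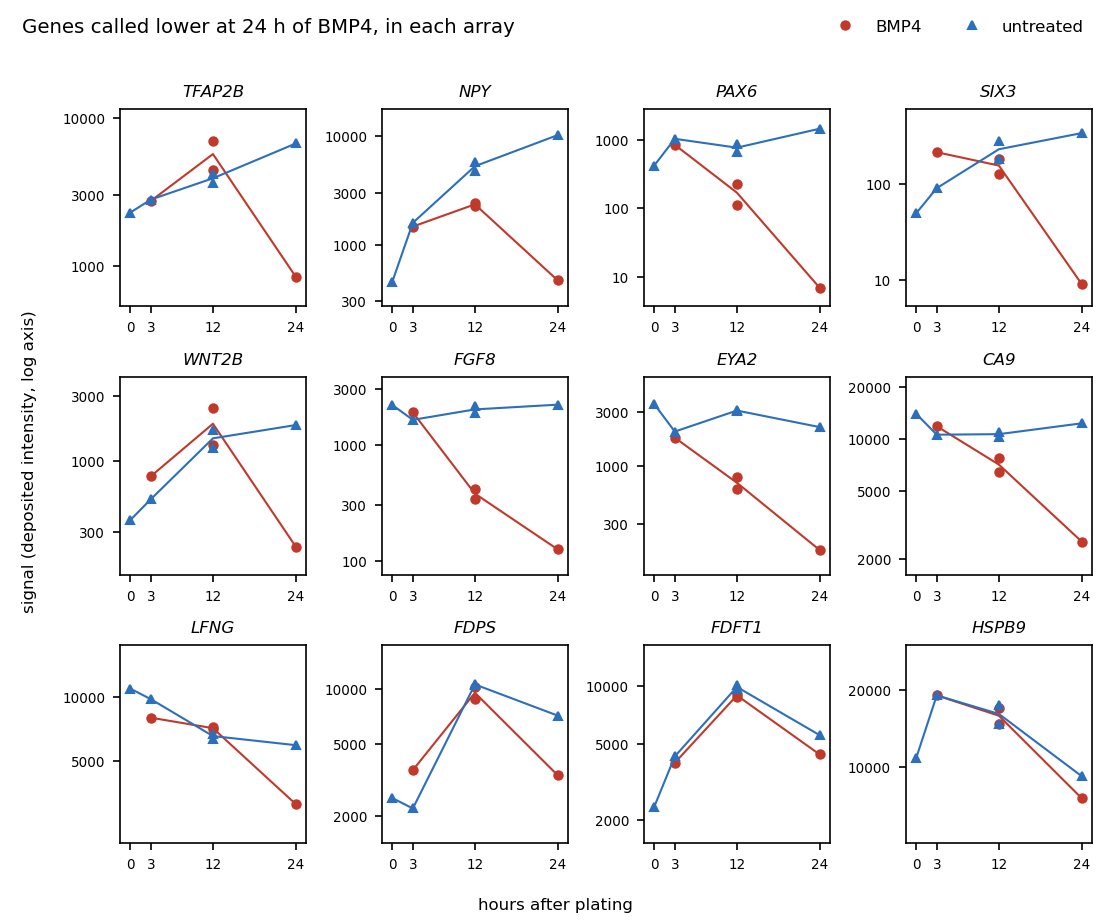
Signal of 12 genes called lower at 24 h of BMP4, on each of the 9 arrays (points, log axis) against hours after plating, with BMP4 (circles) and untreated (triangles). Lines join the single values or the means of the 12 h pairs. TFAP2B, NPY and WNT2B are lower at 24 h than at 12 h in BMP4 and higher at 24 h than on both 12 h arrays untreated, FGF8, EYA2 and PAX6 go down at each time in BMP4, and FDPS and FDFT1 are lower at 24 h than at 12 h in both arms.

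The other leading genes that fell have mixed roles. C2orf40, which encodes a secreted peptide precursor, had 37.7 on the 24 h array, against 446 and 504 on the 12 h arrays (log2 difference −2.94 ± 0.28, adjusted p = 0.00405), and its second probe set tested had −0.48. GAL, the neuropeptide galanin, had 87.1 at 24 h against 644 and 773 at 12 h (−2.67 ± 0.31, adjusted p = 0.00959), and GNG4, a G protein subunit, 72.2 at 24 h against 459 and 732 at 12 h (−2.61 ± 0.41, adjusted p = 0.024). GCHFR, a regulator of tetrahydrobiopterin synthesis, had 420.1 at 24 h against 2386 and 2482 at 12 h (−2.46 ± 0.21, adjusted p = 0.00306), FGG, a fibrinogen chain, 229.6 at 24 h against 1835 and 1070.0 at 12 h (−2.47 ± 0.36, adjusted p = 0.0153), and IL15, a cytokine, 92.2 at 24 h against 408 and 855 at 12 h (−2.37 ± 0.41, adjusted p = 0.0346). In each of these 6 genes the 24 h array was below both 12 h arrays. SHANK2, a synaptic scaffold (−2.59), ENC1, a kelch protein of neural tissue (−2.53), and LOC770996 (−2.86) fell to 24 h signals under the added 27.79. For GCHFR, ENC1, JMJD1C and BOD1L1 the probe sets differed in size or sign. JMJD1C, of a histone demethylase family, had −2.42 while its 4 tested probe sets ran up to −0.10, and BOD1L1 had −2.31 with probe sets up to 0.014. Those of GCHFR ran up to −0.16 and those of ENC1 up to 0.20. With probe sets averaged, none of these 4 genes was called (−0.80, adjusted p = 0.196 for JMJD1C, −1.0, adjusted p = 0.123 for BOD1L1, −1.35, adjusted p = 0.051 for GCHFR and −0.77, adjusted p = 0.435 for ENC1), nor was LOC770996 (−1.90, adjusted p = 0.0707). Without BMP4 12 h array B, IL15 (adjusted p = 0.0666) and ENC1 (adjusted p = 0.0605) were not called, nor was SHANK2 without array A (adjusted p = 0.0549).

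Several further genes among the 73 called lower are named here after their values were seen. LIN28A had 308 at 24 h against 1185 and 907 at 12 h (−1.67 ± 0.30, adjusted p = 0.043) and LIN28B 82.6 at 24 h against 411 and 380.2 at 12 h (−1.94 ± 0.30, adjusted p = 0.0225). Both encode RNA-binding proteins of undifferentiated cells that block the maturation of let-7 miRNAs. ZIC2, a zinc finger factor of neural tissue, had 45.5 at 24 h against 241 and 300.0 at 12 h (−2.02 ± 0.32, adjusted p = 0.0244), and GBX2, a homeobox factor, 575 at 24 h against 1686 and 1892 at 12 h (−1.59 ± 0.27, adjusted p = 0.0302). VEGFD, a ligand of lymphatic and vessel growth, had 416 at 24 h against 1083 and 1242 at 12 h (−1.42 ± 0.20, adjusted p = 0.0137). In all 5 the 24 h array was below both 12 h arrays. LIN28A was not called without BMP4 12 h array A (adjusted p = 0.0669), nor ZIC2 without array B (adjusted p = 0.067).

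Among the genes that rose outside the contractile lists, ANXA8L1, an annexin, had 12846 on the 24 h array, against 2255 and 1148 on the 12 h arrays (log2 difference 2.97 ± 0.37, adjusted p = 0.0104), and SELENOP1, a selenium carrier, 3888 on the 24 h array, against 624 and 370.2 on the 12 h arrays (log2 difference 2.94 ± 0.37, adjusted p = 0.0104). PRPS2, an enzyme of nucleotide precursor synthesis, had 4309 on the 24 h array, against 500.2 and 586 on the 12 h arrays (log2 difference 2.93 ± 0.37, adjusted p = 0.0104), and its 3 probe sets ran from 2.52 to 2.93. The 24 h array was above both 12 h arrays for each of these 3 genes, and the 12 h arrays were above the 3 h signals of 279.9, 159 and 61.1. CHODL, a membrane lectin, had 3579 on the 24 h array, against 558 and 514 on the 12 h arrays (log2 difference 2.68 ± 0.26, adjusted p = 0.00405), and ALPPL, an alkaline phosphatase, 2047 on the 24 h array, against 384 and 215 on the 12 h arrays (log2 difference 2.71 ± 0.36, adjusted p = 0.0115). AGR2, a disulfide isomerase of secretory epithelia, had 1084 at 24 h against 102 and 192 at 12 h (2.72 ± 0.39, adjusted p = 0.0149), and ADIPOQ, adiponectin, 379 at 24 h against 13.4 and 42.2 at 12 h (2.92 ± 0.48, adjusted p = 0.0284). The 12 h arrays of CHODL and ALPPL lay below the 3 h signals of 666 and 440.4, and those of AGR2 on either side of 165. The 3 tested probe sets of ALPPL ran from 0.60 to 3.14 and the 5 of SELENOP1 from 0.70 to 2.94, and neither gene was called with them averaged (2.15, adjusted p = 0.0772 for ALPPL and 1.65, adjusted p = 0.0866 for SELENOP1). EPAS1, the oxygen-sensing factor HIF-2 alpha, had 6314 at 24 h against 2256 and 1381 at 12 h (1.82 ± 0.32, adjusted p = 0.0393), and was not called without array B (adjusted p = 0.113).

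In a list of 40 genes drawn up for fatty acid use and the TCA cycle, MB and SLC25A4 were called higher, beside 0.471% of all named genes. SLC25A4 is the muscle ADP/ATP carrier (1.28 ± 0.18, adjusted p = 0.0137) and MB binds oxygen, so no enzyme of fatty acid use or the TCA cycle was called. At an unadjusted p under 0.05, 8 of the list were higher and 1 lower, beside 5.94% and 6.73% of all named genes. The median was 0.13, or 0.24 without BMP4 12 h array A. With its probe sets averaged SLC25A4 was not called (0.88, adjusted p = 0.189). In the respiratory chain 1 of 49 genes was called lower, beside 0.625% of all named genes, NDUFS1 of complex I (−0.90 ± 0.16, adjusted p = 0.0366), with a median of −0.069. The 3 NDUFS1 probe sets ran from −0.90 to 0.32, and the call was lost with these averaged (−0.15, adjusted p = 0.79) or without array B (adjusted p = 0.0879). Of 36 genes of glycolysis and hypoxia, EPAS1 was called higher and CA9, a carbonic anhydrase induced by low oxygen, lower, with a median of 0.11. CA9 had 2537 on the 24 h array, against 6445 and 7757 on the 12 h arrays (log2 difference −1.47 ± 0.16, adjusted p = 0.00898), and 24 h was below both.

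Sterol and lipid synthesis was the metabolic list with the most calls. Of 27 genes, 5 were called lower, beside 0.625% of all named genes, and the median was −0.71. At an unadjusted p under 0.05, 16 were lower and 0 higher, beside 6.73% and 5.94% of all named genes. FDPS, which makes farnesyl diphosphate, had 3360.5 on the 24 h array, against 8853 and 10208 on the 12 h arrays (log2 difference −1.49 ± 0.17, adjusted p = 0.00902). FDFT1, squalene synthase, had 4388 on the 24 h array, against 9062 and 8781 on the 12 h arrays (log2 difference −1.02 ± 0.16, adjusted p = 0.022), and LSS, lanosterol synthase, 3453 on the 24 h array, against 6573 and 7296 on the 12 h arrays (log2 difference −1.0 ± 0.18, adjusted p = 0.0393). In all 3 the 24 h array was below both 12 h arrays, as were the 3 h signals of 3585, 3972 and 2537. NSDHL (−0.93 ± 0.17, adjusted p = 0.0393) and MSMO1 (−0.83 ± 0.15, adjusted p = 0.0446, named after its values were seen), which act later in the path, fell too. The 3 LSS probe sets ran from −1.0 to −0.14, and with them averaged LSS was not called (−0.64, adjusted p = 0.37). Without array B 3 were called, and LSS (adjusted p = 0.115) and NSDHL (adjusted p = 0.05, just over the threshold before rounding) were not, the second also not without array A (adjusted p = 0.0783). MSMO1 was not called without array A (adjusted p = 0.0838).

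Cell cycle genes were mostly below their 12 h signals, and none was called. Of 58 genes limma called 0, with 0 higher and 28 lower at an unadjusted p under 0.05. A negative difference was seen in 51 of them, beside 50.5% of all genes, with a median of −0.40. CCND1, the cyclin of G1 entry, had 739.9 at 24 h against 1144 and 1542 at 12 h (−0.82 ± 0.25, adjusted p = 0.243). The proliferation marker MKI67 had 2581 at 24 h against 4499 and 3441 at 12 h (−0.60 ± 0.26, adjusted p = 0.456) and TOP2A, which untangles replicated DNA, 3452 at 24 h against 4782 and 6403 at 12 h (−0.68 ± 0.21, adjusted p = 0.264), both named after their values were seen. Among 36 genes of arrest and apoptosis the CDK inhibitor CDKN2B fell, with 2352 on the 24 h array, against 6695 and 9027 on the 12 h arrays (log2 difference −1.71 ± 0.24, adjusted p = 0.0146), and the list's median was 0.014. HSPB9, a small heat shock protein, fell among 37 chaperones (−1.07 ± 0.15, adjusted p = 0.0146, not called with its probe sets averaged at −1.36, adjusted p = 0.0518), with a list median of −0.12. Over all named genes 1.1% were called, and 5.94% were higher and 6.73% lower at an unadjusted p under 0.05.

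Markers of other cell types that the explants could hold were set beside these changes. Summed over 10 heart muscle markers, signal was 122881 at 24 h against 55602 and 56650 at 12 h, with 7 of the 10 called higher. These 7 are contractile genes already described above, so their count is no separate evidence. A sum of signals weighs its brightest genes most, here TNNT2, ACTC1, MYH15 and MYL2. The 5 neural markers summed to 575 against 827 and 1167, with PAX6 called lower. The 4 neural crest markers summed to 1655 against 2874 and 3876, and 0 were called. Each of these sums at 24 h lay outside the 12 h pair. In untreated explants the heart muscle sum was 64330 at 24 h against 23028 and 34763 at 12 h. The untreated neural crest sum was 1939 against 2870 and 2387, so both sums moved as with BMP4. The untreated neural sum moved the other way, with 2894 at 24 h against 2206 and 2327 at 12 h. In the neural crest list of 22 genes, TFAP2B was called lower, beside 0.625% of all named genes, and the median was 0.0043. At an unadjusted p under 0.05, 1 was higher and 7 lower, beside 5.94% and 6.73% of all named genes. Untreated, the median of this list was 0.32, so the list and the sum of 4 markers did not move alike there. The median difference of steps, BMP4 minus untreated, was −0.58. For that difference 0 genes were higher and 7 lower at an unadjusted p under 0.05, beside 6.07% of all probe sets in either direction. SOX10, a crest factor named after its values were seen, had 255 at 24 h against 675 and 1239 at 12 h (−1.74 ± 0.36, adjusted p = 0.0732) without a call. The part of these markers in the genes that fell was not tested.

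Endoderm and epithelium markers summed to 46638 at 24 h against 36202 and 35917 at 12 h over 6 genes, with 0 called. Untreated, the sum was also higher at 24 h, with 41431.5 against 33189 and 34038.5 at 12 h. Of 39 genes in the wider list, 3 were called higher and 2 lower, beside 0.471% and 0.625% of all named genes, with a median of 0.26. The epithelial keratins KRT13 (4666 on the 24 h array, against 927 and 962 on the 12 h arrays, log2 difference 2.27 ± 0.27, adjusted p = 0.0104) and KRT14 (4036 on the 24 h array, against 1065 and 1179.9 on the 12 h arrays, log2 difference 1.82 ± 0.23, adjusted p = 0.0104) rose, as did HHEX (0.90 ± 0.17, adjusted p = 0.0458), a factor of foregut endoderm and endothelium named after its values were seen. FGG and CER1, a secreted BMP inhibitor (−2.09 ± 0.39, adjusted p = 0.0467), fell, CER1 to a 24 h signal of 4.91, under the added 27.79. CER1 was not called without BMP4 12 h array B (adjusted p = 0.136), nor was HHEX without array A (adjusted p = 0.06) or B (adjusted p = 0.134). KRT13 and KRT14 were on the BMP4 24 h array above both 12 h arrays, which differed little from each other. The part of epithelial cells in the genes that rose was not tested.

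Endothelial markers summed to 4975 at 24 h against 4449 and 3817 at 12 h over 5 genes, and blood markers to 875 against 507 and 667 over 4. Untreated, endothelial markers summed to 5454 at 24 h against 3603 and 2953 at 12 h, and blood markers to 654 against 399 and 464. Limma called 0 of the wider lists of 30 and 14 genes, with 6 and 1 at an unadjusted p under 0.05. Smooth muscle markers summed to 4171 against 2452 and 4754, so the 24 h value lay between the pair, and 0 of 14 genes were called, with 4 higher at an unadjusted p under 0.05. ACTA2, smooth muscle actin, had 298 at 24 h against 177 and 264 at 12 h (0.42 ± 0.39, adjusted p = 0.782). Skeletal muscle determination factors summed to 143 against 172 and 132, and MYOG was under the added 27.79 on all 3 arrays. Of 9 tested skeletal muscle genes ACTA1 was the 1 called. Of 75 matrix genes MATN2, a matrilin, rose (2.24 ± 0.37, adjusted p = 0.0283) and the integrin ITGB3 fell (−1.61 ± 0.30, adjusted p = 0.0455), with a median of 0.076. In 7 further lists limma called 0 genes. At an unadjusted p under 0.05 these held 4 of 17 HOX, MEIS and PBX genes, 5 of 16 immediate early genes, 10 of 43 axon guidance genes, 9 of 38 cadherin and junction genes, 4 of 20 genes of the amino acid stress response, 6 of 47 ribosomal genes and 5 of 29 genes of epicardium and mesenchyme. For all lists of this paragraph, the share over all named genes was 1.1% called, and 5.94% higher and 6.73% lower at that unadjusted p. Among 41 inflammation genes CXCL14, a chemokine, rose (1.77 ± 0.27, adjusted p = 0.0199) and IL8L2 fell. MATN2 was not called without array A (adjusted p = 0.0514), and ITGB3 was not without array B (adjusted p = 0.0696). The 4 tested probe sets of MATN2 ran from −0.067 to 2.35 and the 3 of ITGB3 from −1.61 to 0.18, and neither gene was called with them averaged (1.23, adjusted p = 0.179 for MATN2 and −0.77, adjusted p = 0.287 for ITGB3).

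**Figure D4:**
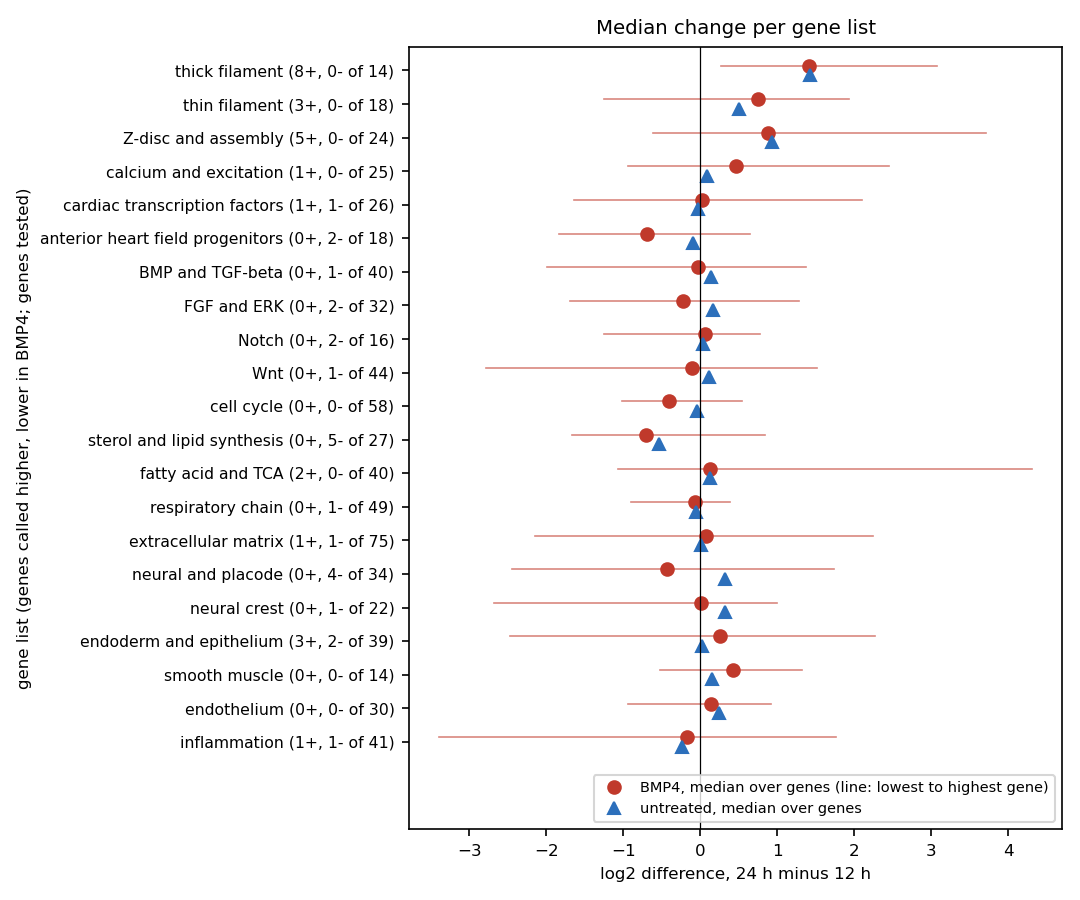
Median log2 difference of 24 h minus 12 h over the tested genes of 21 lists, with BMP4 (circles, with a line from the lowest to the highest gene) and untreated (triangles). Labels give the genes called higher and lower in BMP4 and the genes tested. Thick filament genes have medians of 1.41 with BMP4 and 1.42 untreated, and neural and placode genes −0.43 and 0.32. The median of each arm was taken separately, so a pair of medians is no comparison within genes.

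Untreated explants passed through the same 12 h in culture, and no array is shared between the 2 steps. In them limma called 11 probe sets (0.0388%), 8 higher (0.0282%) and 3 lower (0.0106%) at 24 h. Of the 87 probe sets called higher in BMP4, 82 (94.3%) also had a positive difference untreated, beside 49.1% of all probe sets tested. Their median was 2.26 with BMP4 and 1.29 untreated. Of the 108 called lower, 71 (65.7%) had a negative difference untreated, beside 50.9% of all, with medians of −1.74 with BMP4 and −0.27 untreated. Called in both arms in the same direction were 9 probe sets. The untreated difference was over 1 in 53 of the 87 and under −1 in 13 of the 108. Both sets were chosen by their BMP4 step, and that choice alone favours a larger median in the BMP4 arm. Over all probe sets tested, the median size of the step, taken without its sign, was 0.31 with BMP4 and 0.29 untreated.

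**Figure D5:**
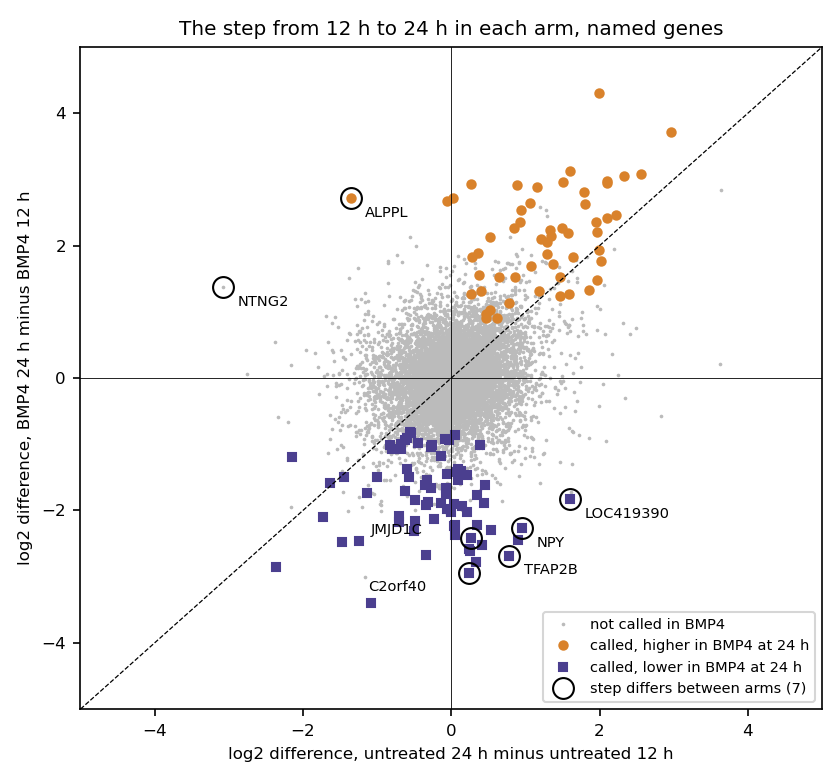
Log2 difference of 24 h minus 12 h with BMP4 (vertical axis) against the same untreated (horizontal axis) for 11675 named genes. Genes called with BMP4 are coloured, the dashed line marks equal steps, and rings mark the 7 genes whose steps differed between the arms, with differences from −3.46 for TFAP2B to 4.46 for NTNG2.

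In the untreated arm limma called 3 of 14 thick filament genes and 0 of 24 Z-disc genes higher, beside 0.0282% of all probe sets tested. At an unadjusted p under 0.05, 8 of the 14 were higher and 1 lower, and 12 of the 24 were higher and 1 lower. The share over all genes at that unadjusted p is not given for this arm, and the untreated median over all named genes was 0.00058. The thick filament list had a median of 1.41 with BMP4 and 1.42 untreated, and the Z-disc list 0.88 and 0.93. Taken within each gene, the median difference of steps, BMP4 minus untreated, was 0.36 and 0.37 in these lists, with 0 called. At an unadjusted p under 0.05 for that difference, 3 thick filament and 2 Z-disc genes were higher and 0 lower, beside 6.07% of all probe sets in either direction. MYH7 had 8.56 on the untreated 24 h array, against 60.9 and 96.7 on the untreated 12 h arrays (−1.53 ± 0.43, adjusted p = 0.408), below the pair there. MYL2 had 10838 on the untreated 24 h array, against 2406 and 3128 on the untreated 12 h arrays (1.97), and ACTA1 16654 on the untreated 24 h array, against 3372 and 5168 on the untreated 12 h arrays (1.99). For MYBPC3 the untreated signals were 1595, against 282 and 306 (2.33), so that the BMP4 24 h signal of 6037 was the higher of the 2 arms. The difference of the steps was not called for these genes (−0.50 ± 0.30, adjusted p = 0.893 for MYL2, −0.060 ± 0.35, adjusted p = 0.996 for ACTA1 and 0.71 ± 0.52, adjusted p = 0.913 for MYBPC3). MB had 1009.7 on the untreated 24 h array, against 302 and 179.9 on the untreated 12 h arrays (1.99), and its difference of steps was 2.32 ± 0.52, adjusted p = 0.458. CXCL14 had 8529 on the untreated 24 h array, against 2435 and 1797 on the untreated 12 h arrays (2.01). Its BMP4 24 h signal of 3223 was the lower of the 2 arms, and its difference of steps was −0.25 ± 0.38, adjusted p = 0.974. Sterol and lipid synthesis had medians of −0.71 with BMP4 and −0.54 untreated, and FDPS a difference of steps of −0.93 ± 0.24, adjusted p = 0.511. Cell cycle genes had medians of −0.40 and −0.043, progenitor genes −0.69 and −0.090, and neural and placode genes −0.43 and 0.32.

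The test of the difference between the steps called 7 of 28329 probe sets (0.0247%), 2 higher (0.00706%) and 5 lower (0.0176%) with BMP4, with 1719 (6.07%) at an unadjusted p under 0.05. TFAP2B had 6721 on the untreated 24 h array, against 4173 and 3645 on the untreated 12 h arrays, so that its untreated signal was higher at 24 h while its BMP4 signal was lower (difference of steps −3.46 ± 0.36, adjusted p = 0.0275). NPY had 10287 on the untreated 24 h array, against 4829.9 and 5798 on the untreated 12 h arrays, so that 24 h lay above the pair there and below it with BMP4 (−3.22 ± 0.30, adjusted p = 0.0221). C2orf40 (−3.17 ± 0.40, adjusted p = 0.0478), JMJD1C (−2.68 ± 0.34, adjusted p = 0.0478) and LOC419390 (−3.42 ± 0.41, adjusted p = 0.0478) also had a lower step with BMP4. ALPPL (4.07 ± 0.51, adjusted p = 0.0478) and NTNG2, a netrin of the axon guidance list (4.46 ± 0.53, adjusted p = 0.0478), had a higher one. NTNG2 had 401 at 24 h against 138 and 137 at 12 h with BMP4 (1.38 ± 0.37, adjusted p = 0.187) and 77.4 against 1144 and 650.0 untreated, and its 2 tested probe sets with BMP4 gave −1.17 and 1.38. CHODL (2.73 ± 0.37, adjusted p = 0.0674), CA9 (−1.68 ± 0.23, adjusted p = 0.0678), PAX6 (−3.35 ± 0.54, adjusted p = 0.219), FGF8 (−1.54 ± 0.36, adjusted p = 0.472) and EYA2 (−1.35 ± 0.33, adjusted p = 0.499) did not pass this test. Nor did 3 dim genes with a high difference of steps, QRFP (2.90 ± 0.62, adjusted p = 0.437), AQP2 (2.92 ± 0.68, adjusted p = 0.472) and FEV (2.92 ± 0.65, adjusted p = 0.457). Without untreated 12 h array B, 5 of the 7 were called, and C2orf40 and JMJD1C were not, both with an adjusted p of 0.0606.

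The preceding step, from 3 h to 12 h with BMP4, uses the same 12 h arrays and is given side by side without a test of likeness. An error in the 12 h signals moves the 2 steps in opposite directions. MB, MYOZ2, MYOM2 and TFAP2B were named for a large later step, and that choice alone favours a smaller or opposite earlier one. In it limma called 377 probe sets (1.33%), 242 higher (0.854%) and 135 lower (0.477%) at 12 h. MYH15 (2.96 ± 0.22 from 3 h to 12 h, 1.24 ± 0.22 from 12 h to 24 h) and MYL2 (2.73 ± 0.21, then 1.48 ± 0.21) had their greater difference in the earlier step. MB (0.13 ± 0.37, then 4.31 ± 0.37), MYOZ2 (−0.0074 ± 0.47, then 3.71 ± 0.47) and MYOM2 (0.093 ± 0.41, then 2.97 ± 0.41) had theirs in the later one. FGF8 (−2.25 ± 0.25, then −1.40 ± 0.25), PAX6 (−2.21 ± 0.38, then −2.44 ± 0.38) and EYA2 (−1.32 ± 0.24, then −1.84 ± 0.24) were lower in both. FDPS (1.40 ± 0.17, then −1.49 ± 0.17) and TFAP2B (1.01 ± 0.25, then −2.68 ± 0.25) were higher in the first and lower in the second. TH, tyrosine hydroxylase, had signals of 7.79 at 3 h, 557 and 596 at 12 h and 593 at 24 h, so that its change lay in the earlier step. SOX9, a factor of cartilage and valve precursors, had 456 at 24 h against 240.1 and 502 at 12 h with BMP4 (0.36 ± 0.44, adjusted p = 0.84), and PRRX1, a mesenchyme factor, 6934 at 24 h against 7279 and 8143 at 12 h (−0.15 ± 0.19, adjusted p = 0.845).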

How the data were processed

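Total RNA of explants was labelled with biotin and hybridised to 9 Affymetrix chicken arrays. The authors deposited linear signal intensity per probe set, and the submitters' processing notes name MAS5. The scaling target and version are not given in the sources used here. Values from 1 to 43611.53 were used without further scaling.

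Probe sets were tested if brighter than their array's 40th percentile in 2 or more of 9 arrays, which kept 28329 and dropped 10110. Of the dropped ones, 677 passed that percentile on the BMP4 24 h array only. A probe set that passed it only on the 2 BMP4 12 h arrays was tested. The filter thus lets in probe sets that are low at 24 h more readily than those high there alone. Limma 3.58.1 in R 4.3.3 was fitted to log2(intensity + 27.79) of all 9 arrays with 7 group means, so that the 12 h pairs supply the 2 residual degrees of freedom. Variances followed a trend over mean signal, since the median residual SD was 0.401 in the dimmest 25% of the probe sets and 0.155 in the brightest 25%. Tests were two-sided, with Benjamini-Hochberg adjustment. The number of arrays limits the precision.

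The platform annotation gave 27168 probe sets 1 symbol, 177 several and 11094 none, with names matched to RefSeq (GRCg7b). Named are the 15 highest and 15 lowest called genes, the 8 highest and 8 lowest called for the difference of steps (where under 5 were called in a direction, the 5 with the greatest size at an unadjusted p under 0.01), up to 4 called members per list, and a set of regulators and contractile genes. Genes with both group means under the added amount were left out, and genes named outside the rule are said to be. The comparison, its members, the lists and this rule were chosen with earlier results of these data known, so lists are described by counts and medians. Of 1365 list entries 1169 matched a gene, 23 by synonym. Alternatives changed the added amount, the filter, the trend, the scaling, the arrays fitted and the threshold.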

Additional observations from a re-analysis of the deposited data

Results flagged for a closer look

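For 7 genes the step from 12 h to 24 h differed between BMP4-treated and untreated explants by the interaction test of limma. The difference of the log2 steps, BMP4 minus untreated, was 4.46 for NTNG2 and 4.07 for ALPPL. It was −3.46 for TFAP2B, −3.42 for LOC419390, −3.22 for NPY, −3.17 for C2orf40 and −2.68 for JMJD1C. Each arm has 1 array at 24 h, so these differences rest on single arrays there. The ACTB ratio of 3′ to 5′ signal was 5.67 on the BMP4 24 h array and 3.72 on the untreated 24 h array, the highest and lowest of the 9 arrays. That of GAPDH was 1.63 and 1.32. The part of RNA integrity in these differences was not tested. With the filter at 1 array, TFAP2B and NPY were called, and with no filter none of the 7 was, with adjusted p = 0.0634 for NPY and 0.12 for TFAP2B.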

How the results depend on the processing

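The 66 named genes called for the step kept their sign in all 924 values under the alternatives. Many of these values could not differ. The filter, the trend, the threshold, the replicate block and leaving out untreated arrays do not alter the log2 difference itself. The sign could change only with the added amount, the scaling, a BMP4 12 h array left out or probe sets averaged. With quantile normalization, 86 of the 87 probe sets called higher and 106 of the 108 called lower were called again. Of these 66 called among the 96 named genes, 20 lost their call when a gene's probe sets were averaged and 26 with no filter. The 20 include MYH1B, ACTC1 and TNNC1. ACTC1 and TNNC1 have 1 probe set each, so their differences were unchanged and only the fit over 11721 genes altered their p-values. With no variance trend all 66 lost it. For the step, the filter at 1 array gave 82 higher and 81 lower, and no filter 51 and 37. With no variance trend limma called 0 and 0 (1205 and 1489 at an unadjusted p under 0.05). The BMP4 arrays alone gave 180 and 168, and an adjusted p under 0.10 gave 150 and 188. Leaving out each 12 h array in turn gave 67 to 157 higher and 68 to 182 lower.

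For the difference of steps, adding the 10th percentile gave 1 higher and adding the 50th percentile 3 lower. The filter at 1 array gave 0 higher and 2 lower, no filter 0 and 0 (1048 and 1167 at an unadjusted p under 0.05), and no variance trend 0 and 0 (933 and 988). Leaving out each 12 h array gave 2 to 7 higher and 4 to 12 lower. The A minus B differences of the 12 h pairs correlated at 0.126 between the arms. With only 2 pairs this cannot show whether the letters pair the samples, and the main fit left them unpaired. The 3′ to 5′ ratio of ACTB was 5.44 in untreated A and 3.80 in B, beside 5.50 and 4.26 with BMP4. That of GAPDH was 1.57 and 1.54, beside 1.81 and 1.40. Whether A and B were handled together across the arms was not tested. With the letters as a replicate block the step gave 603 higher and 802 lower and the difference 118 and 191, with 1 residual degree of freedom. The prior degrees of freedom, which set how strongly limma draws each variance to the trend, also differed between fits. They were 8.2 in the main fit, 11.5 to 14.3 with 1 of the 12 h arrays left out and 29.2 with the block. The cause of these shifts in the counts was not tested. Each 24 h group is 1 array, and the median residual SD was 0.401 in the dimmest 25% of probe sets and 0.155 in the brightest 25%.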
